A study of Mus musculus with 12 samples.

Results

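The genes described here were 32 transcripts that mark the cells of small blood vessels, 27 of them known from endothelial cells and 5 from pericytes. They were taken by gene symbol from a table of 24421 entries, and all 32 were among the 15464 genes kept after a filter on low values. The rule was a list of symbols with no threshold on a measured value, although the list was drawn up with earlier results of these data known. The table came from RNA of GFP+ cells sorted from the cerebellum of Aldh1l1-GFP mice on a C57/BL6J background. In these mice regulatory sequence of the astrocyte gene Aldh1l1 drives GFP. Mice of both sexes were taken at postnatal day 1 (P1), P7, P14 and P28, with 3 libraries at each age and 12 in all. All libraries were of 1 genotype and untreated, so age was the factor compared. The sort was meant to keep astrocytes, and its gate should remove cells of the vessel wall. The libraries of an age were labelled replicates without a statement that they came from different animals, so the p-values below measure the spread between libraries only.

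The endothelium of a brain capillary is a barrier. Its cells are sealed to one another by tight junctions, take up and expel solutes through dedicated transporters, and are covered on their outer side by pericytes and by the endfeet of astrocytes. Vessels grow into the brain by sprouting under vascular endothelial growth factor (VEGF), and the barrier is kept by Wnt signals received by the endothelium.

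Between 6399499 reads (replicate 2 of P7) and 14733985 reads per library fell on genes. The values are read counts divided by DESeq2 size factors by the authors, and are called normalized counts here. Their totals were not equal, and ran from 8375441 in replicate 2 of P7 to 12626951 in replicate 3 of P28. The 12 astrocyte markers summed to between 32408 and 456859 normalized counts per library, and the 27 endothelial genes to between 2638 and 21909, so astrocyte transcripts were the larger sum in every library. Among other classes, 7 oligodendrocyte markers summed to between 1524 and 369455, highest at P14, and 7 choroid plexus markers to between 1197 and 182990. The oligodendrocyte sum was above the astrocyte sum in every P14 library (mean 340089 against 195994). The choroid plexus sum was above it in replicates 1 and 2 of P7 (61697 against 59793, and 128861 against 32408). Ttr alone held 60055 and 125927 of these 2 choroid plexus sums, so their excess over the astrocyte sum rested on 1 gene. Of 8 red cell markers the 6 haemoglobin genes are listed at 0 in every library, and the other two, Alas2 and Slc4a1, summed to 127 or less. The level of a transcript in a bulk sample cannot tell fewer vessel cells from less RNA per vessel cell.

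The summed endothelial level was 2638, 8660 and 3358 normalized counts in replicates 1, 2 and 3 of P1. At P7 it was 5851, 21909 and 4047. It was 14890, 15013 and 16957 at P14 and 8463, 11431 and 11062 at P28. The libraries of P14 and of P28 were close to one another and did not overlap between these ages, whereas replicate 2 stood far above its partners at P1 and at P7. The P1 libraries averaged 4886 ± 3289 and the P7 libraries 10602 ± 9833, while the P14 and P28 libraries averaged 15620 ± 1160 and 10319 ± 1618 (SD, n = 3 each). The coefficient of variation was therefore 67% and 93% at the younger ages against 7.4% and 16% at the older ones. The 5 pericyte genes summed to 2963, 6812 and 2147 at P1, to 2867, 5001 and 3297 at P7, to 6694, 5582 and 5696 at P14, and to 2720, 2288 and 3685 at P28. Replicate 2 was again the highest at P1 and P7, and the lowest at P14 and P28.

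**Figure D1:**
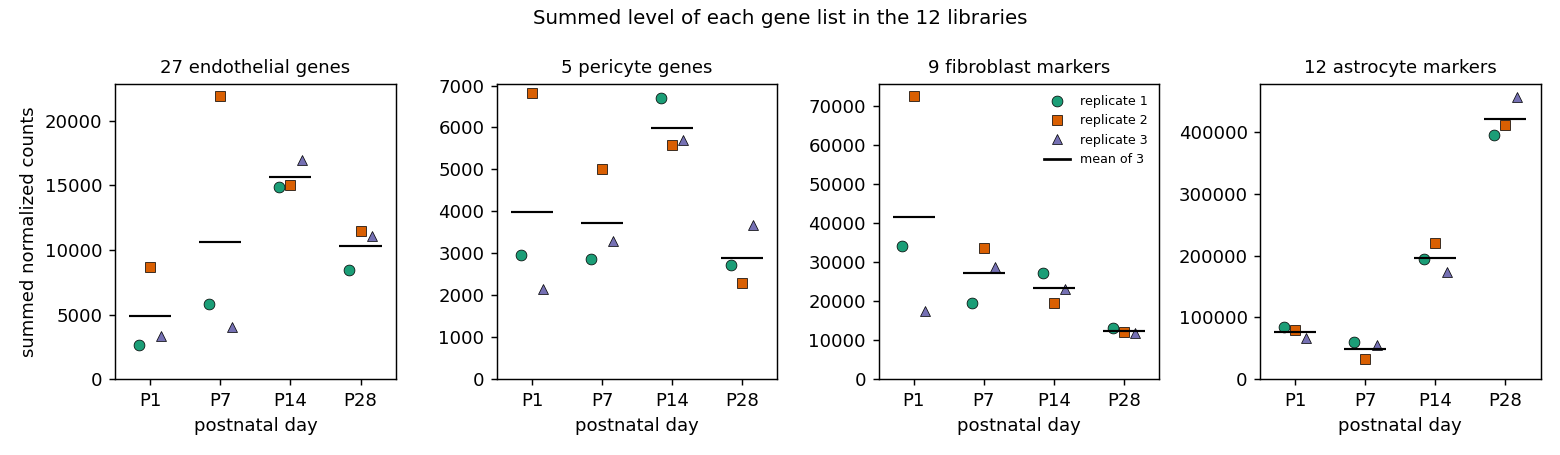
Summed normalized counts (linear axis from 0) of the endothelial genes, the pericyte genes, fibroblast markers and astrocyte markers in each of the 12 libraries, with points for libraries and a bar for the mean of 3. Replicate 2 reached 8660 at P1 and 21909 at P7 in the endothelial sum, above the other libraries of its age, and at P7 had the lowest astrocyte sum, 32408.

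The excess in replicate 2 ran through nearly every gene of the list. At P1 replicate 2 held the highest value for 31 of the 32 genes, the exception being Nos3 (endothelial nitric oxide synthase) at 41.4 against 48.5 in replicate 3, where 37.2% of all genes were highest in that library. At P7 it held the highest value for 32 of 32, against 34.1% of all genes. At P14 and P28 it was highest for 10 and 9 of the 32, against 31.8% and 32.1% of all genes. The ratio of replicate 2 to the mean of its partners, taken on normalized count + 1, had a median of 3.44 over the endothelial and 3.40 over the pericyte genes at P1, with 0.99 over all genes. At P7 the medians were 4.80 and 1.86, with 0.97 over all genes. The excess of the pericyte genes was thus as large as that of the endothelial genes in replicate 2 of P1, and smaller in replicate 2 of P7.

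Other cell classes moved with these libraries. In replicate 2 of P1 all 9 fibroblast markers were highest, with a median ratio of 2.44 and a sum of 72620 against 34110 and 17496, while 7 of 12 astrocyte markers were highest with a median ratio of 1.13. In the same library 6 of 7 smooth muscle markers, 4 of 7 choroid plexus markers (median ratio 2.43) and 7 of 10 microglia markers (1.71) were highest. In replicate 2 of P7, 3 of the 9 fibroblast markers were highest (median ratio 1.05), whereas all 7 smooth muscle markers (1.97) and all 7 choroid plexus markers (2.03) were highest and all 12 astrocyte markers were lowest (0.57). The astrocyte sum in that library was 32408, against 59793 and 55501. A further 24 endothelial genes, listed separately from the 27, were highest in replicate 2 in 20 cases at P1 (median ratio 2.14) and in 24 at P7 (3.87). The part of these other cells in the results below was not tested.

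Some genes followed the excess less than others. At P1 Ocln, which codes for the tight junction protein occludin, was level in the 3 libraries, at 28.3, 30.7 and 29.5 normalized counts. Mfsd2a (lipid transporter of the barrier endothelium) had 903.8 in replicate 2 against 609.7 and 650.5, Lef1 (transcription factor of the Wnt pathway) 210.1 against 164.9 and 127.2, and Pdgfrb (receptor of pericytes for platelet-derived growth factor) 1166 against 829.9 and 692.9. Tie1, an endothelial receptor kinase, had 95.7 against 13.5 and 2.3. Pdgfrb, Mfsd2a, Lef1, Abcg2 and Vtn are also known from cells outside the vessel wall, and the cell that carried each transcript cannot be told apart in these libraries.

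**Figure D2:**
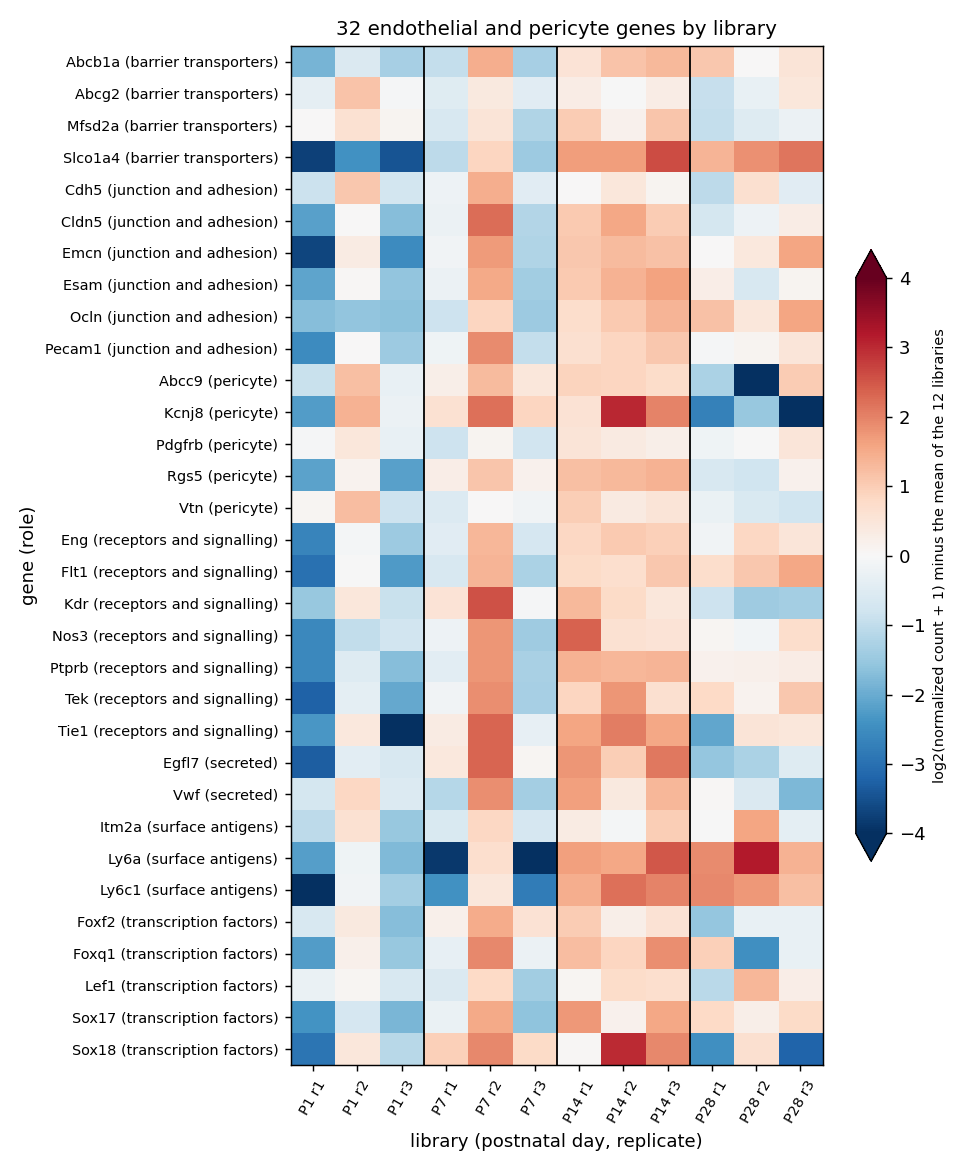
The 32 genes (rows, with their role) in the 12 libraries (columns), coloured by log2(normalized count + 1) minus the mean of the 12 libraries for that gene, with the scale clipped at 4 in either direction. The column of replicate 2 of P7 is red to pale red throughout, and Slco1a4, Ly6a and Ly6c1 change from blue at P1 and P7 to red at P14 and P28 apart from that column.

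Across ages most of the genes were highest at P14. The mean of 24 of the 32 genes peaked there, 19 endothelial and all 5 pericyte genes, where 19.8% of all genes tested did. Marker sums of 4 other cell classes were highest at P14 as well, with a mean of 1648 for smooth muscle, 3429 for microglia, 13585 for granule neurons and 340089 for oligodendrocytes, and their part in the P14 values was not tested. For 4 genes the peak was at P28, for 3 at P7 and for 1, Abcg2, at P1. The lowest mean was at P1 for 20 genes and at P28 for 11. The 24 endothelial genes listed separately summed to 14137 ± 604 at P14 and 14525 ± 2164 at P28 (SD, n = 3). Their libraries overlapped between these ages, so their sum did not fall after P14 as that of the 27 genes did. Changes were tested with limma on log2(normalized count + 1) over all genes, and a gene was called at a Benjamini-Hochberg adjusted p under 0.05. Between P1 and P7 the median log2 difference of the 32 genes was 1.47 (0.04 over all genes), with 25 genes in the upward direction, and 2 were called, both higher (3.47% of all genes tested were called higher). Between P7 and P14 the median was 0.90 (-0.09 over all genes), and 5 were called, all higher (10.8%). From P14 to P28 the median was -0.81 (-0.12 over all genes), and 6 were called, all lower (8.76%). Between P1 and P28 the median was 1.07 (-0.24 over all genes), and 11 were called, all higher and all endothelial (14.6%), while scaling by library totals alone gave 6 higher and 3 lower (Kcnj8, Mfsd2a and Vtn). The 4 counts are 6.25%, 15.6%, 18.8% and 34.4% of the 32 genes, while 7.70%, 20.9%, 14.4% and 34.6% of all genes tested were called in either direction. The shares of the 32 were thus at or below the background of either direction in 3 of the 4 comparisons. All calls within a comparison went in 1 direction, and against the background of that direction the shares were higher in all 4. The direction was read from the calls themselves, so this is a description. At an unadjusted p under 0.05 with a log2 difference over 0.75, the same comparisons gave 14 genes higher (6.94% of all genes), 10 higher (13.1%), 10 lower (16.3%) and 12 higher (15.6%).

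These counts moved with single libraries. Between P1 and P7 the count was 8 without replicate 2 of P1, 4 without replicate 3 of P7, and 1 without replicate 1 of P1, replicate 3 of P1, replicate 1 of P7 or replicate 2 of P7. Between P7 and P14 it was 11 without replicate 2 of P7, 2 without replicate 1 of P7, 1 without replicate 3 of P7, 3 without replicate 1 or replicate 2 of P14, and 2 without replicate 3 of P14. Between P14 and P28 it was 1 without replicate 1 or replicate 3 of P14, 2 without replicate 2 of P14, 3 without replicate 1 of P28 and 2 without replicate 2 of P28. Between P1 and P28 it was 5 (4 higher and 1 lower) without replicate 1 of P1 and 6 (5 higher and 1 lower) without replicate 3 of P1. Of the 24 calls, 7 held with each library left out in turn.

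The calls without replicate 2 of P1 and of P7 were 3, 17, 7 and 17 for the same 4 comparisons. They held every one of the 24 calls above. This choice follows from the high vessel values of those libraries, which were highest for nearly all of the 32 genes. Leaving them out lowers the P1 and P7 means of these genes and the spread. More calls of a rise to P14 or P28 therefore follow from the choice and are not separate evidence. All 17 between P7 and P14 were higher at P14, against 8.33% of all genes tested in that fit, and the median log2 difference of the 32 genes was 1.64. The 12 genes added there were Pecam1, Flt1, Tek, Cldn5, Ocln, Esam, Eng, Ptprb, Abcb1a, Vwf, Rgs5 and Vtn. Between P1 and P28 the added genes were Pecam1, Tie1, Cldn5, Esam, Itm2a and Rgs5, and the background was 12.4% called higher. The added gene between P1 and P7 was Flt1 (background 1.16% higher), and between P14 and P28 Ptprb (6.80% lower). With those libraries absent the lone pairs left at P1 and P7 share the estimate of spread of the other ages.

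**Figure D3:**
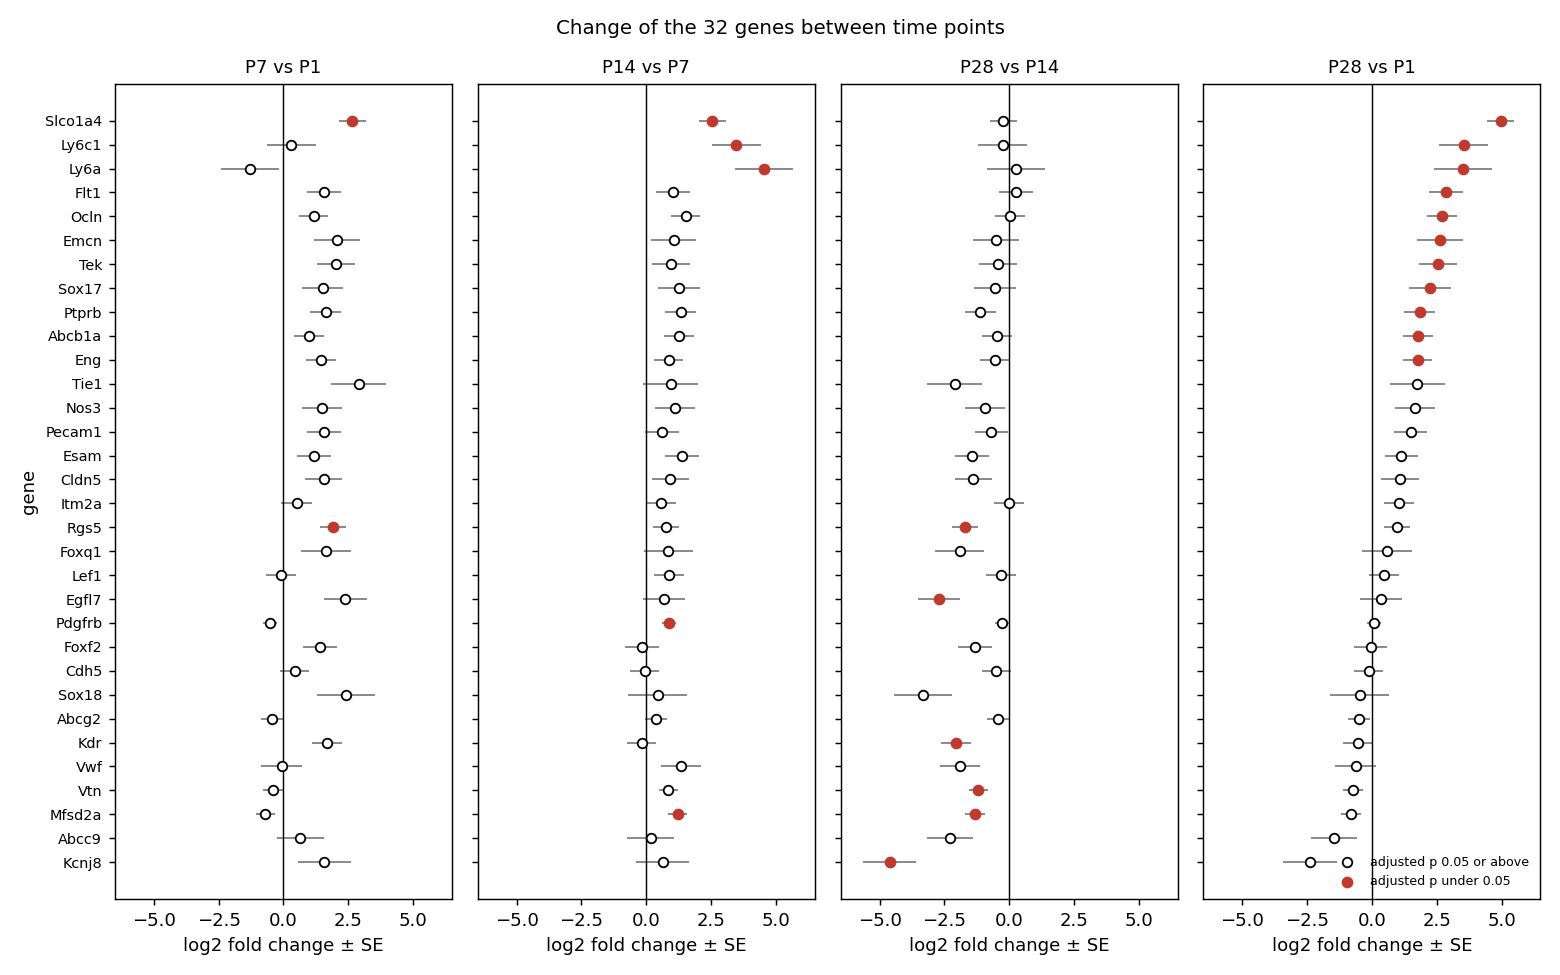
Log2 fold change ± SE (limma, 12 libraries) of the 32 genes, ordered by the change between P1 and P28, with filled points for an adjusted p under 0.05. Filled points number 2, 5, 6 and 11 from left to right, on the right of zero except between P14 and P28.

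Among the receptors and signalling genes, those of the VEGF and angiopoietin systems followed different courses with age. Kdr, the main signalling receptor for VEGF on endothelium (chr5:75932827-75978458, minus strand, GRCm38), had 178.4, 707.3 and 272.6 normalized counts at P1, 742.9, 3019 and 495.3 at P7, 1248, 871.7 and 700.5 at P14, and 286.4, 188.7 and 200.1 at P28. All P28 libraries lay below all P14 libraries, and the log2 difference was -2.04 (SE 0.57, adjusted p = 0.0293). The adjusted p was 0.0582 to 0.105 without any one of the 3 libraries of P14 or without replicate 2 or replicate 3 of P28. Flt1, the high-affinity VEGF receptor that also works as a decoy for the ligand (chr5:147561604-147726011, minus strand), had 73.8, 575.2 and 120.4 at P1, 379.0, 1492 and 241.1 at P7, 997.6, 943.6 and 1228 at P14, and 947.0, 1236 and 1716 at P28. Every P28 library was above every P1 library, and the log2 difference between them was 2.86 (SE 0.67, adjusted p = 0.00439), called with each library left out. From P14 to P28 the adjusted p for Flt1 was 0.829.

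The ratio of Flt1 to Kdr, a pair chosen after the values were seen, set these receptors against each other within a library. It was 0.41, 0.81 and 0.44 at P1 and 0.51, 0.49 and 0.49 at P7. It was 0.80, 1.08 and 1.75 at P14 and 3.31, 6.55 and 8.57 at P28. The P7 libraries were nearly equal although their summed endothelial level ran from 4047 to 21909, and the P28 libraries were above all others. The ratio is between normalized counts not divided by transcript length, so only its change with age can be read.

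Tek, the receptor for angiopoietins, had 38.1, 279.4 and 88.6 normalized counts at P1 and 637.2, 402.2 and 769.5 at P28, and rose by 2.55 on the log2 scale (SE 0.73, adjusted p = 0.0146, or 0.0789 without replicate 1 of P1). Eng, a co-receptor for ligands of the TGF-beta family, had 84.9, 508.0 and 194.6 at P1 and 477.9, 942.4 and 738.4 at P28 (log2 1.76, SE 0.57, adjusted p = 0.0262). Ptprb, a phosphatase that restrains Tek, had 163.6, 689.5 and 304.4 at P1 and 1128, 1145 and 1227 at P28 (log2 1.84, SE 0.60, adjusted p = 0.0277). The P1 and P28 libraries of Tek and Ptprb did not overlap, while those of Eng did, through replicate 2 of P1. The call for Eng was lost without replicate 1 of P1 (0.135), replicate 3 of P1 (0.068), replicate 2 of P28 (0.0777) or replicate 3 of P28 (0.054), and that for Ptprb without replicate 1 of P1 (0.132), replicate 3 of P1 (0.0733) or any P28 library (0.053 to 0.0561). Neither passed in edgeR, with an adjusted p of 0.0583 for Eng and 0.0524 for Ptprb. With library totals the adjusted p was 0.0718 for Eng and 0.0734 for Ptprb. Ptprb had 0.0883 in DESeq2, and Eng 0.0633 with the P1 and P28 libraries fitted alone. Eng overlaps exons of Fpgs on the annotation, so some of its reads could belong to that gene.

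Ptprb at P14 had 2584, 2468 and 2529 normalized counts, above every library of P1 and of P28. Tie1 and Nos3 were not called in any comparison. Tie1 had 13.5, 95.7 and 2.3 at P1, 216.0, 300.4 and 209.6 at P14, and 16.1, 102.6 and 98.7 at P28, and passed between P1 and P28 without replicate 2 of P1 (adjusted p = 0.0333). Nos3 overlaps Atg9b on the annotation, and its libraries ran from 12.9 to 424.7.

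Among the junction and adhesion genes, the tight junction gene Ocln went from 28.3, 30.7 and 29.5 at P1 through 52.5, 172.8 and 33.3 at P7 to 152.5, 196.8 and 244.3 at P14, and held 211.9, 129.7 and 279.9 at P28. Its P28 libraries were all above its P1 libraries, by a log2 difference of 2.70 (SE 0.57, adjusted p = 0.00226), called with each library left out. Emcn, a sialomucin of capillary and venous endothelium, had 8.0, 142.2 and 18.9 at P1 and 115.4, 151.0 and 340.8 at P28 (log2 2.63, SE 0.88, adjusted p = 0.0327). Replicate 2 of P1 overlapped the P28 libraries, and the call for Emcn was lost without replicate 1 of P1 (0.155), replicate 3 of P1 (0.103) or replicate 3 of P28 (0.097), in edgeR (0.119) and in DESeq2 (0.0758).

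The remaining junction genes were not called. Cldn5, the most abundant claudin of brain endothelium, had 44.3, 205.1 and 61.3 at P1, 171.2, 941.0 and 88.4 at P7, 417.3, 585.0 and 405.1 at P14, and 124.2, 175.7 and 248.8 at P28. Every P14 library of Cldn5 was above every P28 library, with an adjusted p of 0.21. Pecam1, an adhesion molecule of all endothelium, had P14 libraries from 532.7 to 731.9 and P28 libraries from 328.8 to 484.1, with an adjusted p of 0.506. Esam, an adhesion molecule of endothelial junctions, had 406.7 to 598.4 at P14 and 125.0 to 238.2 at P28 (adjusted p = 0.152). These 3 genes showed the same lack of overlap between P14 and P28, and so did 13 of the 32 genes in the downward direction, where 14.5% of all genes tested did. Cdh5, the cadherin of endothelial junctions, had means between 609.6 and 962.9 at the 4 ages, and no adjusted p under 0.592.

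The largest difference between P1 and P28 among the 32 genes was in a barrier transporter. Slco1a4, an organic anion transporter of brain capillaries (chr6:141805440-141856199, minus strand), had 24.6, 62.9 and 30.3 normalized counts at P1 and 164.8, 619.0 and 125.6 at P7. It had 1099, 1097 and 2115 at P14 and 876.8, 1207 and 1502 at P28. Its libraries did not overlap at any step up to P14 and overlapped between P14 and P28. The log2 difference was 2.66 between P1 and P7 (SE 0.52, adjusted p = 0.00547) and 2.54 between P7 and P14 (adjusted p = 0.00291), both called with each library left out. Between P1 and P28 it was 4.98 (adjusted p = 6.49e-06), equal to a 31.5-fold rise on this scale. Slco1a4 belongs to a cluster of closely related genes, and how reads shared by them were assigned is not given in the sources used here.

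Abcb1a, which codes for the drug efflux pump P-glycoprotein, had 93.5, 226.5 and 135.5 at P1 and 719.0, 343.2 and 485.5 at P28, with no overlap (log2 1.79, SE 0.58, adjusted p = 0.0277). The call was lost without replicate 1 of P1 (0.11), replicate 3 of P1 (0.0711) or replicate 1 of P28 (0.0862). With library totals the adjusted p was 0.0770. Abcb1a has a close paralog. Abcg2, another efflux pump, followed no such course, with a mean of 379.9 ± 221.6 at P1 and 261.4 ± 125.0 at P28 (SD, n = 3) and an adjusted p of 0.386.

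Mfsd2a, which carries lysophospholipids and restrains vesicle transport in barrier endothelium, had its highest mean at P14. It had 609.7, 903.8 and 650.5 at P1, 380.6, 849.4 and 261.2 at P7, 1221, 668.6 and 1279 at P14, and 309.8, 419.9 and 509.8 at P28. The rise to P14 was 1.21 on the log2 scale (SE 0.38, adjusted p = 0.0361), with replicate 2 of P7 above replicate 2 of P14. The difference from P14 to P28 was -1.32 (SE 0.38, adjusted p = 0.0324), with all P28 libraries below all P14 libraries. The rise was lost without replicate 1 or 3 of P7 (0.121 and 0.179) or replicate 1 or 3 of P14 (0.122 and 0.132), and the fall without replicate 1 or 3 of P14 (0.111 and 0.123) or replicate 1 or 2 of P28 (0.081 and 0.0502). The rise had an adjusted p of 0.0505 in edgeR and 0.0897 with library totals, and the fall 0.0639 with the P14 and P28 libraries fitted alone.

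The surface antigens Ly6c1 and Ly6a, small anchored proteins of mouse vessels, were low in the younger libraries. Ly6c1 had 4.3, 90.0 and 37.9 at P1, 17.5, 134.8 and 13.2 at P7, 274.3, 452.8 and 391.0 at P14, and 377.0, 332.6 and 228.5 at P28. Ly6a had 9.8, 42.9 and 13.6 at P1, 2.4, 78.5 and 0.8 at P7, 153.6, 142.8 and 275.8 at P14, and 181.2, 444.7 and 128.5 at P28. Both genes had all P14 and P28 libraries above all P1 and P7 libraries, replicate 2 included.

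Between P7 and P14 the log2 difference was 3.47 for Ly6c1 (SE 0.94, adjusted p = 0.0161) and 4.55 for Ly6a (SE 1.12, adjusted p = 0.00942). The call for Ly6c1 was lost without replicate 1 or 3 of P7 (0.0705 and 0.0797) or replicate 2 or 3 of P14 (0.0633 and 0.0521), and that for Ly6a without replicate 3 of P7 (0.0516) and in edgeR (0.0843). Ly6a rested on 3, 60 and 1 reads at P7, so its fold depends on the pseudocount and was 3.08 on the log2 scale with a pseudocount of 10. Between P1 and P28 the log2 differences were 3.53 for Ly6c1 (adjusted p = 0.00959, called with each library left out) and 3.52 for Ly6a (adjusted p = 0.0251, or 0.0918, 0.0753 and 0.0771 without replicate 1 of P1, replicate 3 of P1 and replicate 2 of P28). Both genes have near-identical neighbours of the Ly6 family, which makes their counts uncertain. Itm2a, a membrane protein enriched in brain endothelium, was not called, and its P28 libraries of 548.0, 1649 and 421.9 were spread by replicate 2.

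The transcription factors were low and mostly unresolved. Sox17, a factor of arterial endothelium, had 6.8, 25.0 and 10.6 at P1 and 70.1, 47.2 and 69.0 at P28 (log2 2.23, SE 0.81, adjusted p = 0.0449). All P28 libraries of Sox17 were above all P1 libraries, but the adjusted p was 0.0552 to 0.155 without replicate 1 or 3 of P1, replicate 1 of P7, replicate 1 or 3 of P14, or replicate 1 or 3 of P28, and 0.0562 in edgeR. Sox18, a close relative of Sox17, had 21.2, 170.3 and 80.4 at P14 and 2.9, 33.0 and 1.4 at P28, on 2, 28 and 1 reads, with an adjusted p of 0.0626 that became 0.0133 without replicate 2 of P28, 0.0487 in DESeq2, 0.0206 with the replicate number as a block and 0.0471 with library totals. Foxq1 and Foxf2, forkhead factors of brain vessels, and Lef1 were not called, and Foxq1 had the lowest mean level per kilobase of exon of the 32, at 9.3 normalized counts.

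Of the secreted products, Egfl7, an angiogenic factor of the vessel matrix, had 4.9, 42.9 and 37.1 at P1, 77.2, 297.1 and 60.5 at P7, 198.0, 114.3 and 255.2 at P14, and 19.0, 23.6 and 40.6 at P28. The P28 libraries were all below the P14 libraries, by -2.72 on the log2 scale (SE 0.81, adjusted p = 0.0378). The adjusted p was 0.0539 to 0.126 without replicate 1 of P7, any library of P14, or replicate 1 or 2 of P28. Egfl7 overlaps Agpat2 and hosts a microRNA locus. Vwf, the clotting factor stored by larger vessels, had 360.1, 150.2 and 291.0 at P14 and 116.9, 76.7 and 32.5 at P28, with an adjusted p of 0.119.

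All 5 pericyte genes had their highest mean at P14, and Kcnj8, Rgs5 and Vtn were called lower at P28 than at P14. The summed level of 12 further pericyte genes, listed separately, did not peak at P14. Its mean was highest at P1, with 4785 ± 1519 normalized counts (SD, n = 3). It was 4251 ± 846 at P7, little different at P14 (4295 ± 287), and lowest at P28 (2715 ± 502). Between P7 and P14, 1 of these 12 genes was called higher (10.8% of all genes) and 1 lower (10.0%). Kcnj8 and Abcc9, which lie next to each other on chromosome 6 (142564837-142571614 and 142587862-142702315, minus strand), code for the pore and the regulatory subunit of the ATP-sensitive potassium channel of pericytes. Kcnj8 had 2.5, 41.4 and 12.9 at P1, 23.9, 73.3 and 28.7 at P7, 23.3, 131.2 and 63.0 at P14, and 1.5, 4.7 and 0 at P28. At P28 this was 1, 4 and 0 reads, and a library with 0 allows up to 3 reads. All P28 libraries were below all P14 libraries, and the log2 difference of -4.61 (SE 1.03, adjusted p = 0.00963) was called with each library left out but had an adjusted p of 0.0542 with the P14 and P28 libraries fitted alone. Its size depends on the pseudocount, and was -5.99 with 0.1 and -2.56 with 10.

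Abcc9 did not share that course. It had 839.8, 820.9 and 749.3 at P14 and 188.5, 24.8 and 911.5 at P28, so replicate 3 of P28 was above every P14 library and the others were far below. The adjusted p was 0.10 with all libraries and 0.00637 without replicate 3 of P28. Abcc9 overlaps a transcript on the opposite strand, and whether reads were counted by strand is not given in the sources used here.

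Rgs5, a regulator of G protein signalling and a marker of brain pericytes (chr1:169655501-169695813, plus strand), had 127.4, 615.2 and 124.9 at P1, 677.6, 1222 and 637.9 at P7, 1285, 1380 and 1475 at P14, and 362.4, 324.4 and 630.2 at P28. Each age was separated from the next without overlap. The log2 difference was 1.91 between P1 and P7 (SE 0.49, adjusted p = 0.0276) and -1.71 between P14 and P28 (SE 0.49, adjusted p = 0.0321). The rise was lost without replicate 1 or 3 of P1 (0.14 and 0.109) or any P7 library (0.0547 to 0.133), and in edgeR (0.0835). The fall was lost without any P14 library (0.0768 to 0.0984) or replicate 1 or 2 of P28 (0.0674 and 0.0769). Between P1 and P28 the adjusted p was 0.141 with all libraries and 0.00172 without replicate 2 of P1.

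Pdgfrb, by which pericytes are recruited to growing vessels, had 487.3, 917.4 and 503.8 at P7 and 1239, 1094 and 1002 at P14. The libraries did not overlap, and the log2 difference was 0.86 (SE 0.27, adjusted p = 0.0354). The adjusted p was 0.0592 to 0.152 without replicate 1 or 3 of P7 or any library of P14, and 0.121 when values were scaled by library totals. Vtn, the matrix protein vitronectin, was the most abundant of the 32 per kilobase of exon (915 normalized counts per kb over the 12 libraries, ahead of Itm2a with 378 and Mfsd2a with 299). It had 3307, 2157 and 2407 at P14 and 1399, 1085 and 953.4 at P28, with no overlap (log2 -1.19, SE 0.37, adjusted p = 0.0469). That call was lost without replicate 1 of P1, any P7 library, any P14 library, or replicate 2 or 3 of P28 (0.0559 to 0.159).

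The ratio of Rgs5 to Pdgfrb in each library, also chosen after the values were seen, was 0.15, 0.53 and 0.18 at P1, 1.39, 1.33 and 1.27 at P7, 1.04, 1.26 and 1.47 at P14, and 0.47, 0.38 and 0.53 at P28. The P7 and P14 libraries were all above those of P1 and P28. No pericyte gene was called between P1 and P28 in limma or edgeR, 1 was under an unadjusted p of 0.05 in limma and 2 in edgeR, and DESeq2 called 1, Kcnj8, lower.

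Because the summed endothelial level varied so much between libraries of an age, each gene was also expressed as its share of the 27-gene sum in its own library, which is given as a description without a test. Slco1a4 held 0.93%, 0.73% and 0.90% at P1, 2.82%, 2.83% and 3.10% at P7, 7.38%, 7.31% and 12.5% at P14, and 10.4%, 10.6% and 13.6% at P28. The libraries of P1 and of P7 were each close together, replicate 2 among them, and their ranges did not meet those of the next age. Kdr held 6.76%, 8.17% and 8.12% at P1, 12.7%, 13.8% and 12.2% at P7, 8.38%, 5.81% and 4.13% at P14, and 3.38%, 1.65% and 1.81% at P28. Flt1 held 6.48%, 6.81% and 5.96% at P7, 6.70%, 6.29% and 7.24% at P14, and 11.2%, 10.8% and 15.5% at P28. In share, then, Kdr was highest at P7 and Flt1 and Slco1a4 at P28.

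Cdh5 had a mean share of 14.1% ± 2.3 in the P1 libraries and 10.1% ± 1.8 in the P7 libraries, against 4.96% ± 0.99 and 5.71% ± 2.9 in those of P14 and P28 (SD, n = 3). Mfsd2a had 23.1%, 10.4% and 19.4% at P1, lowest in replicate 2, and between 3.66% and 8.20% at P7, P14 and P28. Abcg2 had 8.54%, 7.32% and 8.37% at P1 and 1.73% to 5.19% later. Pecam1 stayed between 2.26% and 5.85% over all 12 libraries. Shares of a sum are tied to one another, so they cannot be read as independent changes.

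**Figure D4:**
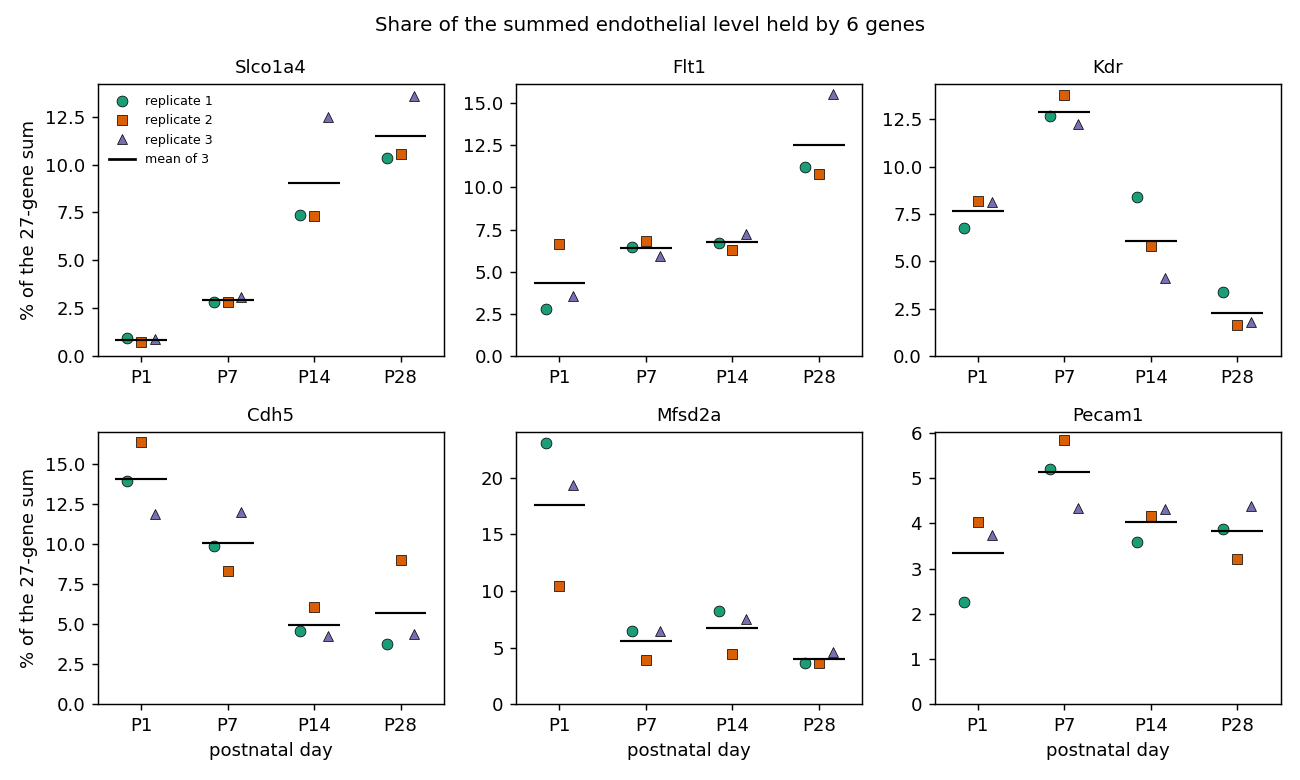
Share (%) of the summed level of the 27 endothelial genes held by Slco1a4, Flt1, Kdr, Cdh5, Mfsd2a and Pecam1 in each library (linear axes from 0), with a bar for the mean of 3. Replicate 2 of P7, with a summed level of 21909, had a Slco1a4 share of 2.83%, between 2.82% and 3.10% in its partners.

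A start-site sequence from RefSeq (GRCm38.p6) was found for 21 of the 32 genes, and the 250 bases before the start were searched on both strands for 3 short motifs. The motif AGGAAG is a core bound by ETS factors and reads CTTCCT on the opposite strand. The motif AACAAT is bound by SOX factors and the motif GTAAACA by forkhead factors. The ETS motif was present in 10 of the 21 windows, against 29.2% of 27025 promoters, and all 10 belonged to the 17 endothelial genes found. The SOX motif was in 3 of 21, against 9.65% of promoters, and the forkhead motif in 1, against 3.09%. The windows of Flt1, Slco1a4 and Kcnj8 are shown in the direction of transcription, with the ETS motif on either strand in capitals. These genes, chosen after their values were seen, are those with a call that held with each library left out and with 1 start listed. Flt1 lies at chr5:147726012-147726261, Slco1a4 at chr6:141856221-141856470 and Kcnj8 at chr6:142571615-142571864, all on the minus strand.
Flt1: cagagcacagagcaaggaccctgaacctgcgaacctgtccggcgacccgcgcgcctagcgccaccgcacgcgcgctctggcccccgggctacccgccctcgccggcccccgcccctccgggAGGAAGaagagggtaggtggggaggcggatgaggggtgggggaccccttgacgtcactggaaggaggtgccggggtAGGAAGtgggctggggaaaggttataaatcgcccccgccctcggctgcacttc
Slco1a4: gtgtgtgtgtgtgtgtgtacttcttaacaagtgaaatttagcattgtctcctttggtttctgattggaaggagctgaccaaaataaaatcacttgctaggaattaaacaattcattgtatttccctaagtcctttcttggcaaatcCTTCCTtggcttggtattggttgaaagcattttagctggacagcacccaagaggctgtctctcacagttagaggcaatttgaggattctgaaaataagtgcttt
Kcnj8: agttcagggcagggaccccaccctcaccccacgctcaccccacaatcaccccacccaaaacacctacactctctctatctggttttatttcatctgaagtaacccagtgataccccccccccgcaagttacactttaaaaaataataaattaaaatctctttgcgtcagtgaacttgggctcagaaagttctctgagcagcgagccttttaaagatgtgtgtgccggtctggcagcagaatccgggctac

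Flt1 held the ETS motif at 2 places, Slco1a4 at 1 and Kcnj8 at none. A match of these letters is a description of the window and not a bound site. Among the endothelial genes found, Kdr, Tek, Cldn5, Ocln, Ly6c1, Lef1 and Mfsd2a held no such match in theirs.

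Of 24 further endothelial genes, none was called between P1 and P7, and 3 were called higher between P7 and P14 (10.8% of all genes). From P14 to P28, 2 were called higher (5.68%) and 2 lower (8.76%). At P28, 3 were called higher than at P1 (14.6% of all genes) and 2 lower (20.0%). The most abundant were Slc2a1, the glucose transporter of the barrier, with a log2 difference of 2.00 between P7 and P14 (SE 0.46, adjusted p = 0.0060), and Arhgap31, a GTPase regulator, with 1.01 (SE 0.21, adjusted p = 0.0032). Arhgap31 had 1146, 1325 and 993 normalized counts at P1, a smaller excess in replicate 2 than for Slc2a1 (1233, 4119 and 1206). Arhgap31 was also called higher at P28 than at P14 (log2 0.93, adjusted p = 0.0100). The cells that carried these transcripts were not tested. Of 12 further pericyte genes, 3 were called lower between P14 and P28 (8.76% of all genes). The largest of these changes was in Tbx18, a mural cell factor. It had 248, 253 and 282 normalized counts at P14 and 32.2, 5.9 and 5.4 at P28 (log2 -4.53, adjusted p = 5.54e-04). At P28, 2 of the 12 were called higher than at P1 (14.6% of all genes) and 5 lower (20.0%). Of 9 tested genes of sprouting and immature endothelium, 1 was called lower at P28 than at P14 (8.76% of all genes). It was Cxcr4, a chemokine receptor (log2 -1.47, adjusted p = 0.0305, from 0.0152 to 0.112 over the libraries left out). Cxcr4 had 773, 292 and 637 normalized counts at P1 and 322, 216 and 233 at P7. It was thus lowest in the replicate 2 libraries that were high in vessel genes, and the cell that carried it was not tested. Against P1, 1 of the 9 was called higher at P28 (14.6% of all genes) and 2 lower (20.0%).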

How the data were processed

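The authors' methods describe libraries made from total RNA and name no selection of polyadenylated RNA. Per the labels and those methods, reads were aligned with STAR 2.5.0a to the mouse genome and counted per gene. The counts were then divided by DESeq2 size factors. The deposited signal is a table of such normalized counts for 12 libraries, all columns used. Every column name carries the same age, so each column was tied to its library by the number in the label, and ages rest on the labels. Whole reads were recovered for 100% of values (tolerance 0.001), which gives 6399499 to 14733985 reads per library and limits precision for genes of a few reads. Genes with a value of 10 or more in at least 3 libraries were kept. Values were fitted as log2(value + 1) with limma 3.58.1 (R 4.3.3, intensity trend, 12 libraries, no covariate), and p-values were adjusted by Benjamini-Hochberg over all 15464 genes. Fold changes are on that scale and understate changes of low genes. edgeR 4.0.16 and DESeq2 1.42.0 on whole reads, other pseudocounts, filters, scalings, a replicate block and left-out libraries were alternatives, and the fits were tested on simulated data. Named genes were the 32 and, from each other list, the most abundant and the most changed. The members and lists were chosen with earlier results of these data known. Gene positions and exon lengths are from GENCODE M21.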

Additional observations from a re-analysis of the deposited data

How the results depend on the processing

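Counts of the 32 genes called for P7 against P1, P14 against P7, P28 against P14 and P28 against P1 were 2, 5, 6 and 11. By edgeR they were 1, 3, 6 and 7, and by DESeq2 4, 5, 7 and 10. Scaling by library totals alone gave 3 between P7 and P14 and a summed endothelial level of 8485 at P28 (10319 otherwise); it shifted the median of all genes from -0.09 to -0.34 between P7 and P14, from -0.12 to -0.35 between P14 and P28 and from -0.24 to -0.66 between P1 and P28. An unadjusted p under 0.05 with a log2 difference over 0.75 gave 14, 10, 10 and 13, of which 12 higher and 1 lower in the last. Leaving out 1 library gave 1 to 8, 1 to 11, 1 to 6 and 5 to 15, and leaving out replicate 2 of both P1 and P7 gave 17 between P7 and P14 and 17 between P1 and P28. Summed endothelial levels with 1 library left out were 2998 to 6009 for P1 and 4949 to 13880 for P7, and 14952 to 15985 for P14 and 9762 to 11247 for P28. Ly6a between P1 and P7, not called, was -1.29 on the log2 scale and became 0.24 in edgeR and 0.28 in DESeq2, and the cause was not tested. With the replicate number as a block the counts were 3, 5, 7 and 12, with Eng gained between P1 and P7, Sox18 between P14 and P28, and Pecam1 and Kcnj8 between P1 and P28, where Sox17 was lost (adjusted p = 0.0580). The numbers were not taken to pair the libraries, since the labels do not say what they mark and 1 of 18 same-number pairs correlated above 0.1 (r from -0.03 to 0.14). A library matched its own number best in 25 of 36 comparisons with another age, a hint of pairing from the data and not from the design. These comparisons are not independent, since each pair of ages is counted from both sides. The highest r, 0.14, joined replicate 2 of P1 and of P7, the libraries high in vessel genes. The part of that excess in the match was not tested. Genes of a few reads per library, such as Kcnj8 at P28 and Ly6a at P7, are limited by depth.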

Other observations

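Replicate 2 of P28 stood apart in some genes outside the 32, chosen here after their values were seen. Gja5, the gap junction gene of arterial endothelium, had 6, 724 and 39 normalized counts in replicates 1, 2 and 3 of P28, and at most 62 in any other library. Sema3g, a semaphorin of arterial endothelium, had 7, 196 and 0, and Slc2a1 had 3189, 7348 and 3193. Gja5 and Sema3g belong to a list of 10 artery and vein genes. Of these, 4 were highest in replicate 2 of P28, where 32.1% of all genes were. From the same list Gkn3 was lowest there, at 26.3, 9.4 and 39.2, and Efnb2 had 1865, 1925 and 2272. In that library Cdh5 had 1027 against 318.6 and 482.8 and Itm2a 1649 against 548.0 and 421.9, while Abcc9 had 24.8 against 188.5 and 911.5. The summed endothelial level of that library, 11431, was not apart from its partners. These values are from 1 library and no test was made.

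Of 24 genes of signals between astrocytes and vessels, 1 was called higher (3.47% of all genes) and 5 lower (4.24%) between P1 and P7. At P28 4 were called higher than at P1 (14.6%) and 6 lower (20.0%). Angpt1, a ligand of Tek, had 827, 371 and 813 normalized counts at P1, 3315, 1763 and 3042 at P7, 328, 405 and 375 at P14, and 468, 442 and 467 at P28. The log2 difference was 2.05 between P1 and P7 and -2.82 between P7 and P14 in limma, both called with each library left out, and at P1 and P7 the replicate 2 libraries, highest in the vessel genes, were lowest in Angpt1. Vegfc, a growth factor of the VEGF family, was higher at P28 than at P1 by 2.86, and S1pr1, a sphingolipid receptor of endothelium and astrocytes, by 2.82. Among 9 fibroblast markers 7 were called lower at P28 than at P1 (20.0% of all genes), and Col6a1 had a log2 difference of -3.19.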
